A study of Mus musculus with 6 samples.

Results

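The S100A genes described here are S100a3, S100a4, S100a6, S100a7a, S100a8, S100a9, S100a10, S100a11, S100a14 and S100a16. They were taken by gene name from a table of 54532 genes measured by RNA-seq in mouse back epidermis, and all 10 were found there. The control group consisted of 3 samples from Spry1flox/flox mice, and the knockout group of 3 samples from Spry1flox/flox K14-Cre-ERT2 mice. Both genotypes carried the floxed alleles of Spry1, whose product Sprouty1 restrains signals from receptor tyrosine kinases, and both were gavaged with tamoxifen in corn oil, 0.1 mg for each g of body weight, on 4 occasions a week during 4 weeks. The keratin 14 promoter drives the tamoxifen-activated Cre recombinase in basal keratinocytes, so Spry1 is not deleted by design in immune cells, melanocytes or fibroblasts of the same tissue. No group carried Cre alone, and what Cre does and what the loss of Spry1 does cannot be told apart. The age of the mice is not given in the sources used here. Nothing in the labels says that each sample is its own animal. A p-value here weighs the group difference only against the spread of these samples, which may be technical.

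S100 proteins are small calcium-binding proteins of the EF-hand type that mostly work as dimers. Inside the cell they bind partners such as annexins and the cytoskeleton, and some of them are released and act on receptors of neighbouring cells. In skin, S100A8 and S100A9 are scarce in resting epidermis and are known from wounded and psoriatic keratinocytes as well as from neutrophils, while S100A10, S100A11, S100A14 and S100A16 are ordinary constituents of epithelial cells.

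Levels are given as FPKM, counts of fragments divided by gene length and by a total for each library, so that genes can be compared per length. Reads recovered from the FPKM values summed to between 18383323 and 21024716 per sample. Spry1 itself lay between 25.8 and 34.4 FPKM in the controls and between 1.06 and 1.49 FPKM in the knockouts. The 9 keratinocyte marker genes summed to 13078 to 14558 FPKM in controls and 22426 to 27978 FPKM in knockouts, while 5 endothelial markers summed to no more than 5.18 FPKM in any sample. Control replicate 3 correlated less with the other controls (r across genes of 0.964 and 0.962) than these did with each other (0.986). The Y-linked gene Eif2s3y stood at 19.3 FPKM in Spry1_KO replicate 2, while the other 5 samples read at most 0.203 FPKM. Ddx3y and Uty, also Y-linked, were highest there, at 15.9 and 3.08 FPKM, and Xist was lowest, at 1.31 FPKM. That sample thus read as male and the others as female, and the part of sex in the results below was not tested. Of 12629 genes that averaged 1 FPKM or more, 54.0% differed between the genotypes (limma on log2(FPKM + 1), Benjamini-Hochberg adjusted p under 0.05), 29.6% higher and 24.4% lower in the knockout. The split depended on the scaling: 3736 genes were higher and 3079 lower on the authors' scale, 2055 and 4470 with each column scaled to the same FPKM sum (TPM scaling), 2900 and 3742 scaled to the recovered reads, and 2903 and 3818 in limma-voom on those reads. TPM scaling moved the median log2 fold change of all tested genes by -0.25, and scaling to recovered reads by -0.11.

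Of the 10 S100A genes, 8 passed the filter on low values. S100a8, S100a9, S100a6 and S100a16 rose in the knockout and S100a4 fell, while S100a10, S100a11 and S100a14 did not pass the test. The 5 calls are 62.5% of the tested members, beside the 54.0% of all tested genes, so their number is close to the background. The median log2 fold change of the tested members was 0.53, and that of all tested genes 0.03. In 6 of the 8 the groups did not overlap, 5 of them higher and 1 lower in the knockout, where this held for 64.2% of all tested genes, 34.9% higher and 29.4% lower. S100a8 and S100a9 had far larger changes than the others. In RNA from whole tissue, fewer cells of a type and less RNA per cell cannot be told apart, and this holds for each gene below.

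**Figure D1:**
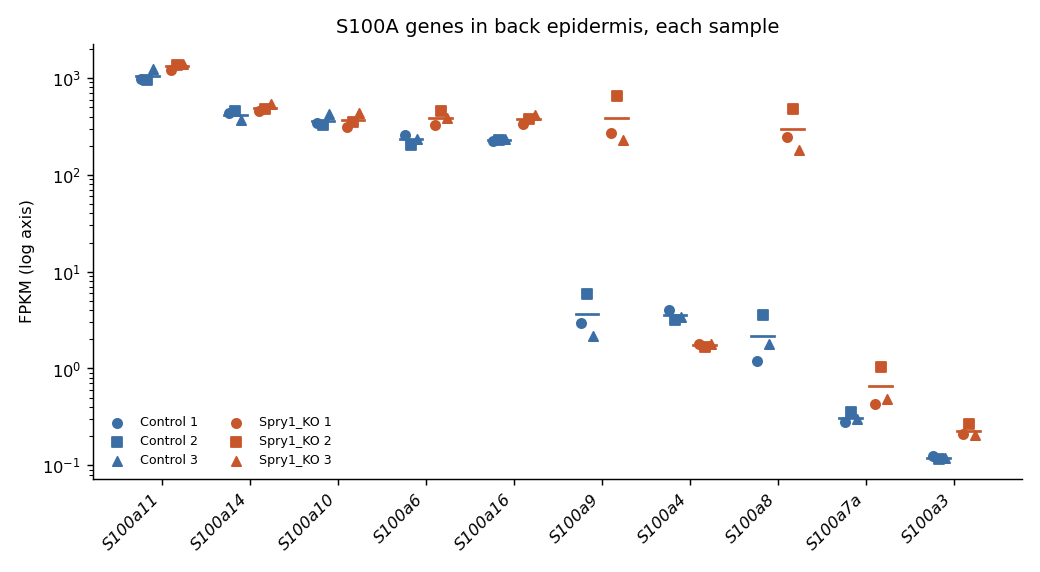
FPKM (log axis) of the 10 S100A genes in each of 6 samples, ordered by the control mean; blue marks are controls, orange marks knockouts, marker shapes the replicate numbers, and short lines the group means. S100a8 and S100a9 move from below 6 FPKM in every control sample to 181 FPKM or more in every knockout sample, into the range of the abundant members.

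S100A8 and S100A9 form the heterodimer calprotectin, which withholds zinc and manganese from microbes and is released as an alarmin. S100a8 read 1.19, 3.55 and 1.77 FPKM in controls, against 246, 475 and 181 FPKM in knockouts. Every knockout sample lay far above every control, and Spry1_KO replicate 2 stood at 2.23 times the mean of the other knockouts. The group means were 2.17 ± 1.23 and 301 ± 155 FPKM (SD, n = 3 each), a ratio of 139. The log2 fold change was 6.52 ± 0.40 (SE; limma adjusted p of 5.24e-05). The control values came from 15, 45 and 24 recovered reads, so the ratio rests on few reads.

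S100a9 read 2.94, 5.87 and 2.16 FPKM in controls, against 272, 651 and 231 FPKM in knockouts. Control replicate 2 was the highest control and Spry1_KO replicate 2 the highest knockout for both S100a8 and S100a9. Group means were 3.66 ± 1.95 and 385 ± 231 FPKM (SD, n = 3 each), a ratio of 105, or 68.8 without Spry1_KO replicate 2. The log2 fold change was 6.29 ± 0.44 (SE; limma adjusted p of 8.61e-05). By size of rise S100a8 ranked 15 and S100a9 ranked 17 among the 12629 tested genes. By level, S100a8 went from rank 10382 in the controls to rank 195 in the knockouts, and S100a9 from rank 8657 to rank 159.

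The S100a9 to S100a8 ratio of FPKM was 2.48, 1.65 and 1.22 in the controls and 1.11, 1.37 and 1.28 in the knockouts. The groups overlapped. The difference of the mean log2 ratio was -0.46 (exact permutation test, two-sided, p = 0.3, where 3 against 3 samples can give no less than 0.1). Leaving out Control replicate 1 gave -0.19 and leaving out Control replicate 3 gave -0.70, so its size rests on single control samples. Since the controls held 22 to 56 reads for S100a9, the ratio there is imprecise.

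Likeness to S100a8 was measured over the 6 samples as the root mean square distance between profiles of log2(FPKM + 1), each centred on its own mean. S100a9 was the nearest of 12628 genes, at 0.24. It was followed by Sprr2d, a cornified envelope gene, at 0.35, by the stress keratin gene Krt16 at 0.51, by Gm5416 at 0.54 and by Spink7, which encodes a protease inhibitor, at 0.60. No other S100A gene came close, and the nearest was S100a6 at rank 1705. With so large a group difference this distance mostly follows the fold change, and S100a6 ranked 1732 by size of rise. The samples also share their libraries, so the likeness is a description and adds little to the fold changes.

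Since S100A8 and S100A9 are the main cytosolic proteins of neutrophils, neutrophil markers were read beside them. Of 14 markers 12 lay below the filter. In 6 of the 14 every knockout was above every control, and Mmp9 was lower. Of all tested genes 34.9% were higher without overlap, but of these 6 only Cxcr2 passed the filter, so the share covers unlike genes. Cxcr2, a chemokine receptor, read 0, 0.108 and 0.0505 FPKM in controls, against 3.46, 1.83 and 5.30 in knockouts (limma log2 fold change 2.03 ± 0.28, SE; adjusted p of 0.00112). Retnlg was at 0 in every control and at 0.671, 0.389 and 2.46 FPKM in knockouts. Csf3r, the receptor of the granulocyte growth factor, read 0.0152, 0.136 and 0.0284 FPKM in controls, against 0.469, 0.287 and 0.404 in knockouts, and passed in limma-voom on genes with at least 10 reads (log2 fold change 2.86, adjusted p of 0.00714). The other 3 were Mmp8, Cd177 and Fpr1, all at or under 0.287 FPKM. For Ltf and Itgam the groups overlapped, and both had lower means in the knockouts. Ltf read 1.47 FPKM in Control replicate 3 and at most 0.317 FPKM in any other sample. Itgam averaged 0.827 FPKM in controls against 0.573 in knockouts. Other listed markers were at or near 0. Elane was at 0 in every sample and Ngp in every knockout. Ly6g reached 0.0528 and Camp 0.152 FPKM in 1 knockout sample each, and Mpo read at most 0.0533 FPKM. All 14 markers summed to 13.7 to 19.4 FPKM in controls against 4.01 to 10.8 in knockouts, but Mmp9, which fell by 2.97 on the log2 scale, made up most of the control sums. The 13 others summed to 0.989, 1.40 and 2.21 FPKM in controls, against 6.06, 3.47 and 9.64 in knockouts, so their sum was higher in every knockout than in any control. The part of neutrophils in the S100a8 and S100a9 result was not tested.

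Of 8 tested macrophage markers 5 rose and 2 fell, where 29.6% of all tested genes rose and 24.4% fell. With those below the filter, the 10 macrophage markers summed to 37.1 to 55.1 FPKM in controls against 86.5 to 159 in knockouts. C1qb read 2.92, 2.11 and 1.46 FPKM in controls, against 32.0, 17.8 and 38.0 in knockouts. The 2 that fell were Adgre1 and Csf1r. Adgre1, which encodes F4/80, went from 6.74 to 1.88 FPKM (limma log2 fold change -1.42, adjusted p of 0.00268). Csf1r, the receptor of the macrophage growth factor, went from 18.2 to 7.62 FPKM (-1.16, limma adjusted p of 0.000802). Langerhans cell markers also fell, as given below, and the part of Langerhans cells in the Adgre1 and Csf1r values was not tested. The part of macrophages in the S100a8 and S100a9 result was not tested. Without Spry1_KO replicate 2, S100a8 and S100a9 had log2 fold changes of 6.13 and 5.84 (limma adjusted p of 0.000189 and 0.000213), and without that sample and Control replicate 3 together 6.07 and 5.60.

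S100a8 and S100a9 lie next to each other on chromosome 3 on opposite strands. In GRCm38 (GENCODE M21), S100a8 spans chr3:90668978-90670035 and S100a9 chr3:90692632-90695721, with 22.6 kb between them. Since they moved together, the sequence before each start is shown, and that of S100a11, the most abundant member, for contrast. The sequences are RefSeq promoter windows of GRCm38.p6, printed 5′ to 3′ on the gene's strand and ended before the first annotated transcript base. Capitals mark matches to 4 motifs searched on both strands: TGANTCA (AP-1), TTGCNNAA (C/EBP), TTCNNNGAA (STAT) and CCGGAA (ETS). The last line is a stretch of the S100a8 window close to the RefSeq start, inside the GENCODE span of the gene, with the letters TATAAA in capitals.
S100a8, chr3:90668821-90668977, plus strand: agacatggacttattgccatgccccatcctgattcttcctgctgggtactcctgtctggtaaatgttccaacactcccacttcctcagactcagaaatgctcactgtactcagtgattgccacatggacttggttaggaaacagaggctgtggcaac
S100a9, chr3:90695722-90695971, minus strand: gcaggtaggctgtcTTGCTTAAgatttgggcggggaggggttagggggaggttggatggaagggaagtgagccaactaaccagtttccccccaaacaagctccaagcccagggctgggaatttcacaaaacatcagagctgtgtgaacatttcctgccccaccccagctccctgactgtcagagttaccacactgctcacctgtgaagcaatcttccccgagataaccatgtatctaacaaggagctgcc
S100a11, chr3:93520246-93520487, plus strand: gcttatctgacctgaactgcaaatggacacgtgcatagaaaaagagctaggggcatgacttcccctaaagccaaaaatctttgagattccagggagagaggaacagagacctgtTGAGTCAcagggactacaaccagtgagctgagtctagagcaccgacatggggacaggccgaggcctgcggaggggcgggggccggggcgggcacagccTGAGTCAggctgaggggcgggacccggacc
S100a8 near its RefSeq start, chr3:90669029-90669058, plus strand: caagctttcctcTATAAAagcagctgacac

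RefSeq windows of 300 bases were held for 8 of the 10 members, 12 windows in all, as some genes have several starts. S100a10 and S100a14 had none. In the whole windows, counted from the RefSeq start, S100a9 held 1 C/EBP match at -236 and S100a11 held AP-1 matches at -136 and -38. S100a16 held an AP-1 match at -192 in 1 of its windows, and S100a7a a STAT match, TTCCAGGAA, at -169. The S100a8 window held none of the 4 motifs. Among all 32851 windows, 7.81% held the AP-1 letters, 10.8% the C/EBP, 8.30% the STAT and 14.9% the ETS letters. TATAAA, searched after the windows had been seen, was held by 4 of the 12 member windows and by 13.6% of all windows. It stood at -30 in S100a8, at position 1 in S100a9, at -31 in S100a4, which fell, and at -52 in 1 window of S100a3. A match is a run of letters and no measured binding site.

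S100a6, or calcyclin, is known from proliferating cells and binds the adaptor encoded by Cacybp. It read 259, 205 and 235 FPKM in controls, against 328, 453 and 386 FPKM in knockouts, with no overlap. Its means were 233 ± 26.7 and 389 ± 62.5 FPKM (SD, n = 3 each), a ratio of 1.67 and a log2 fold change of 0.73 ± 0.15 (SE; limma adjusted p of 0.00632). As for calprotectin, Spry1_KO replicate 2 was the highest sample.

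S100a16, a member found in many epithelia, read 222, 229 and 233 FPKM in controls, against 335, 378 and 415 FPKM in knockouts. The controls lay close together and all knockouts were above them. Its means were 228 ± 5.52 and 376 ± 40.1 FPKM (SD, n = 3 each), a ratio of 1.65, and the log2 fold change was 0.71 ± 0.11 (SE; limma adjusted p of 0.00174). S100a6 and S100a16 were 0.45 and 0.44 under TPM scaling, the smallest values among the alternatives, and both still passed.

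S100a4 binds non-muscle myosin and is known from fibroblasts and leukocytes. It read 4.04, 3.18 and 3.43 FPKM in controls, against 1.79, 1.68 and 1.77 FPKM in knockouts, without overlap. The means were 3.55 ± 0.441 and 1.75 ± 0.0597 FPKM (SD, n = 3 each), a ratio of 0.492. The log2 fold change was -0.72 ± 0.11 (SE; limma adjusted p of 0.00143). It was -1.13 in limma-voom on recovered reads, where no pseudocount of 1 FPKM damps low genes. The gene had only 34 to 43 reads in controls against 17 to 21 in knockouts. The span of Gm42674, on the same strand, overlaps S100a4 by 2115 bases and is listed at 0 in every sample. How reads from the shared stretch were counted is not given. The S100a4 level may therefore be too low or hold reads of both loci.

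Markers of cells that can carry S100a4 moved in both directions: those of fibroblasts and Langerhans cells fell, those of T cells were mixed, and of the macrophage markers more rose than fell. Of 9 fibroblast markers 6 were tested, and 4 fell and none rose, where 24.4% of all tested genes fell (median log2 fold change -0.91). All 9 summed to 12.5 to 20.6 FPKM in controls against 4.63 to 9.14 in knockouts. The 4 were Dpt, Col6a1, Col1a2 and Col3a1, which fell by 1.37, 0.66, 0.92 and 0.98 on the log2 scale. The calls for Col1a2 and Col3a1 were lost with both Control replicate 3 and Spry1_KO replicate 2 left out (limma adjusted p of 0.0618 and 0.108) and without Spry1_KO replicate 1 (0.0545 and 0.0704). That for Col3a1 was also lost without Control replicate 1 (0.0645), Control replicate 3 (0.0506) or Spry1_KO replicate 2 (0.0635) and with no filter (0.0532). Of 7 Langerhans cell markers 5 fell and none rose, again beside 24.4% of all tested genes, and their sums were 1383 to 2298 FPKM in controls against 512 to 771 in knockouts. Of 8 T cell markers 4 fell and 3 rose, 87.5% called beside 54.0% of all genes, with overlapping sums of 60.3 to 86.0 and 28.6 to 62.1 FPKM. The 4 that fell were Trdc, Cd3g, Cd3e and Cd3d, with log2 fold changes of -2.73, -2.03, -1.68 and -1.24. Each of them was called in 15 of 15 alternatives. The 3 that rose were Trac, Cd4 and Cd8a, named after their values were seen. The calls for Trac and Cd8a were lost under some alternatives (limma adjusted p up to 0.0782 and 0.0799). Their part in the S100a4 result was not tested.

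S100a11 binds annexin A1 and is cross-linked into the cornified envelope. It was the most abundant member in every sample, at 985.5, 949 and 1235 FPKM in controls against 1219, 1378 and 1406 FPKM in knockouts. Control replicate 3 lay above the lowest knockout. The means were 1056 ± 156 and 1334 ± 101 FPKM (SD, n = 3 each), and the log2 fold change was 0.34 ± 0.15 (SE; 95% interval -0.01 to 0.70), with a limma adjusted p of 0.0937. Without Control replicate 3 it was 0.46 and passed (adjusted p of 0.0283), and it passed with array weights (0.0178).

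S100a14, a member known mainly from epithelia, read 434, 455 and 367 FPKM in controls, against 459, 474 and 537 FPKM in knockouts. The groups did not overlap, but lay close together at 455 and 459. The log2 fold change was 0.23 ± 0.13 (SE; 95% interval -0.07 to 0.53), with a limma adjusted p of 0.165, and its sign turned under TPM scaling (-0.05).

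S100a10, or p11, does not bind calcium and joins annexin A2 in a complex at the plasma membrane. It read 339.5, 325 and 423 FPKM in controls, against 312, 356 and 435 FPKM in knockouts, with overlapping groups. The log2 fold change was 0.02 ± 0.16 (SE; 95% interval -0.37 to 0.41), with a limma adjusted p of 0.942. The interval leaves room for a change of the size seen for S100a11 in either direction.

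**Figure D2:**
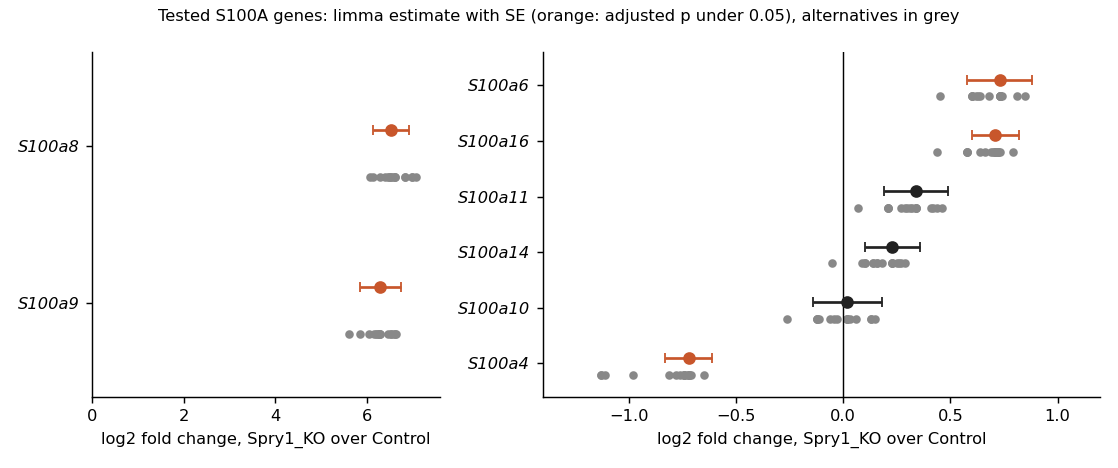
Log2 fold change on the log2(FPKM + 1) scale of the 8 tested S100A genes, with the limma estimate and its SE (orange where the adjusted p was under 0.05, black otherwise) and the estimate under each alternative in grey. The left panel holds S100a8 and S100a9, the right panel the other 6 on a finer axis; the grey points of S100a10 lie on both sides of 0, and those of S100a14 do so through TPM scaling.

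The remaining members lay below the filter. S100a7a, the mouse relative of psoriasin, read 0.279, 0.357 and 0.298 FPKM in controls, against 0.434, 1.05 and 0.486 in knockouts, from 7 to 9 and 11 to 25 reads. S100a3, known from the hair cuticle, read 0.126, 0.116 and 0.118 FPKM in controls, against 0.211, 0.265 and 0.204 in knockouts, from 12 to 13 and 19 to 26 reads. For both genes every knockout sample was above every control. The ratio of the S100a7a means was 2.10, and 1.48 without Spry1_KO replicate 2. The exact permutation test gave p = 0.1 for each (two-sided), the smallest value that 3 against 3 samples allow. In limma-voom on recovered reads over genes with at least 10 reads on average, where 52.5% of 15481 genes passed, S100a3 had a log2 fold change of 0.75 ± 0.35 (SE; adjusted p of 0.0982) and S100a7a 0.79 ± 0.48 (SE; adjusted p of 0.2). The span of S100a3 contains that of S100a2 on the same strand, and their reads may be mixed. Of the 16 hair shaft markers measured, 14 lay below the filter and 12 were at 0 in at least 1 sample, among them Krt33b and Krt40 in all samples. Of the tested ones Krt32 fell from 6.72 to 0.554 FPKM and Hoxc13 rose from 2.10 to 4.83 FPKM, and all 16 together summed to 8.76 to 11.5 FPKM in controls against 6.49 to 9.48 in knockouts. Their part in the S100a3 values was not tested.

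Per length, the order of the levels in the controls was S100a11, S100a14, S100a10, S100a6, S100a16, S100a9, S100a4, S100a8, S100a7a and S100a3. The ranges of S100a14 and S100a10, of S100a6 and S100a16, of S100a9 and S100a4, and of S100a4 and S100a8 overlapped, and those of the other neighbours did not. In the knockouts the order was S100a11, S100a14, S100a6, S100a9, S100a16, S100a10, S100a8, S100a4, S100a7a and S100a3. There each neighbouring pair from S100a6 to S100a8 overlapped, and no other neighbouring pair did. S100a9, at 231 to 651 FPKM, and S100a8, at 181 to 475 FPKM, also overlapped S100a14, at 459 to 537 FPKM. S100a9 stood above S100a16 and S100a10 only in Spry1_KO replicate 2, so its place in the order rests on that sample. All 10 members together summed to 2248, 2176 and 2501 FPKM in controls against 3174, 4169 and 3593 FPKM in knockouts. This was 0.568% to 0.732% of all FPKM in controls against 0.744% to 0.924% in knockouts.

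S100a8 and S100a9 made up 0.184%, 0.433% and 0.157% of the S100A pool in the controls and 16.3%, 27.0% and 11.5% in the knockouts. S100a11 held 45.6% of the pool on average in controls against 36.9% in knockouts, S100a14 18.3% and 13.6%, and S100a10 15.6% and 10.2%. The shares of S100a6 (10.1% and 10.7%) and S100a16 (9.91% and 10.4%) moved little. The 5 abundant members S100a6, S100a10, S100a11, S100a14 and S100a16 alone summed to 2163 to 2493 FPKM in controls against 2654 to 3179 in knockouts. These sums are on the authors' scale and depend on it. Under TPM scaling the log2 fold changes were 0.45 for S100a6, 0.44 for S100a16, 0.07 for S100a11, -0.05 for S100a14 and -0.26 for S100a10.

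**Figure D3:**
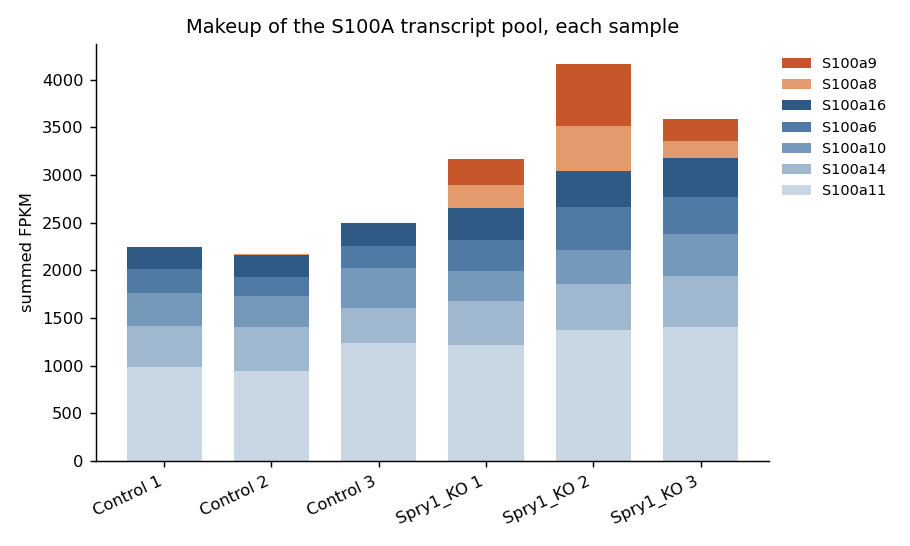
Summed FPKM of 7 S100A genes in each sample, stacked by gene (S100a3, S100a4 and S100a7a are too low to show). Orange segments, S100a8 and S100a9, are not visible in the controls and are the top of each knockout bar, the tallest being Spry1_KO replicate 2; the blue segments differ less.

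Of the 10 members, 8 lie in a cluster of 12 S100 genes that spans 184.7 kb of chromosome 3, and S100a11 and S100a10 lie 2.82 Mb further on. Along the cluster the tested genes did not move as a block. S100a1 rose, S100a13 and S100a14 beside it did not pass, S100a16 and S100a6 rose, S100a4 fell, and S100a8 and S100a9 stand at the far end. The 4 other rows of the table that lie inside the cluster, Gm24593, Gm23464, Gm42674 and Gm19739, were listed at 0 in all samples.

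**Figure D4:**
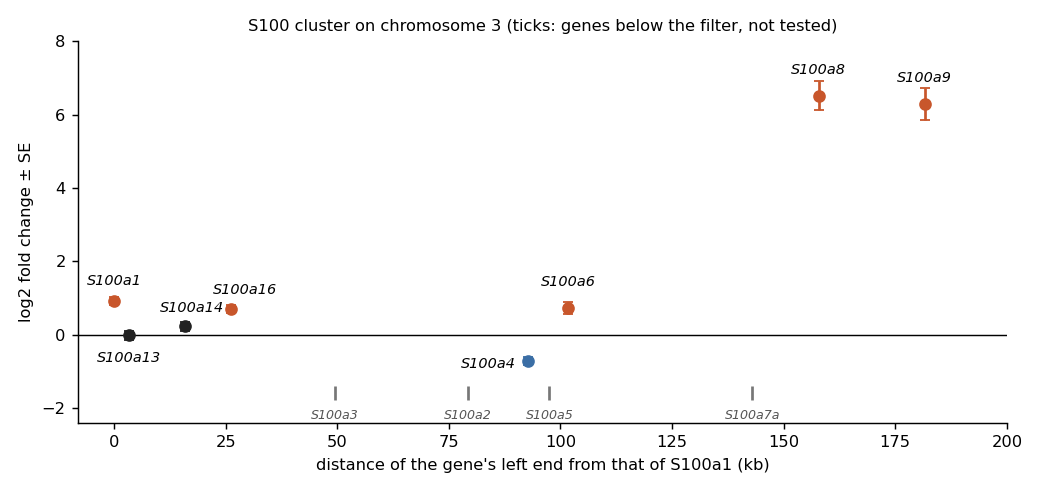
Log2 fold change ± SE of the S100 genes of the chromosome 3 cluster against the distance in kb of each gene's left end from that of S100a1; orange rose, blue fell, black did not pass, and ticks mark genes below the filter. S100a8 and S100a9, at 6.52 and 6.29, lie at the right end, and all other tested genes of the cluster lie between -0.72 and 0.92.

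Of the other S100 genes, 7 were in the table and 2 of these were tested. S100a1, best known from muscle, read 24.3, 26.3 and 21.1 FPKM in controls, against 39.7, 49.7 and 49.1 FPKM in knockouts. It rose by a log2 fold change of 0.92 ± 0.12 (SE; limma adjusted p of 0.00102). The 6 tested skeletal muscle markers fell, beside 24.4% of all tested genes. With the untested Myh4, the 7 muscle markers summed to 17.8 to 66.4 FPKM in controls against 3.89 to 5.84 in knockouts. The muscle call for Mylpf held in 8 of 15 alternatives (limma adjusted p up to 0.086). S100a13 averaged 29.7 FPKM in both groups (log2 fold change -0.01, 95% interval -0.30 to 0.28). S100b, a marker of melanocytes and Schwann cells, lay below the filter at 0.148, 0.111 and 0.277 FPKM in the controls and 0.637, 1.05 and 0.655 in the knockouts, and passed in limma-voom on genes with at least 10 reads (adjusted p of 0.0118). The 7 melanocyte markers summed to 11.1 to 14.5 FPKM in controls against 213 to 217 in knockouts, and the 5 Schwann cell markers to 30.9 to 46.2 and 17.9 to 38.6. Their part in the S100b values was not tested.

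The fused-type genes, whose long proteins begin with an S100 domain and build the cornified layer, lie on the same chromosome between S100a9 and S100a11. Of 7, 5 were tested, and 4 rose and 1 fell, where 54.0% of all tested genes passed (median log2 fold change 1.05). Flg, which encodes filaggrin, read 2.53, 2.30 and 0.493 FPKM in controls, against 28.0, 30.4 and 28.8 in knockouts, and its relative Flg2 read 42.2, 34.3 and 11.7 against 1.85, 1.57 and 1.57 FPKM. These relatives thus moved in opposite directions, by 3.53 and -3.33 on the log2 scale (limma adjusted p of 0.000193 and 0.000825). Rptn (repetin) and Hrnr (hornerin) had log2 fold changes of 4.30 and 1.05. The call for Tchh, the trichohyalin gene (0.49, limma adjusted p of 0.0379), held in only 5 of 15 alternatives. Among the losses was every other scaling tried (0.218 with TPM scaling). They also included leaving out Control replicate 1 (0.0993), Control replicate 2 (0.109), Spry1_KO replicate 1 (0.0693) or Spry1_KO replicate 2 (0.111).

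Receptors that released S100 proteins act on were measured next. Of 11 genes 9 were tested, and 5 rose and 1 fell (median log2 fold change 0.30), where 54.0% of all genes passed. Ager, which encodes RAGE, and Tlr4, the most studied receptors, lay below the filter, with overlapping groups: Ager averaged 0.534 and 0.477 FPKM in controls and knockouts and Tlr4 0.176 and 0.283 FPKM. Cd14, a co-receptor of Tlr4, read 0.733, 0.731 and 1.01 FPKM in controls, against 9.56, 8.14 and 9.98 in knockouts (limma log2 fold change 2.49 ± 0.11, SE; adjusted p of 1.82e-05). Mcam, an adhesion protein that binds S100A8 and S100A9, read 2.24, 1.53 and 2.04 FPKM in controls, against 13.7, 16.4 and 9.60 in knockouts. Its log2 fold change was 2.25 ± 0.19 (SE; limma adjusted p of 0.000171). Cd36 rose by 1.81 and Myd88, the adaptor of Toll-like receptors, by 0.42. Nptn (neuroplastin), a receptor of S100A8, fell by 0.46, and Bsg (basigin), a receptor of S100A9, rose by 0.30. The call for Bsg (limma adjusted p of 0.0416) held in only 2 of 15 alternatives, and that for Myd88 in 12. Among the losses for Bsg were TPM scaling (0.865) and leaving out any 1 sample (0.0512 to 0.121). Those for Myd88 included TPM scaling (0.359) and scaling to recovered reads (0.0529).

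The 10 intracellular partners were all tested, and 3 rose and 1 fell, 40.0% called and so fewer than the 54.0% of all tested genes (median log2 fold change -0.07). Ahnak, a scaffold bound by the S100a10 and annexin A2 complex, read 125, 117 and 122 FPKM in controls, against 64.1, 70.9 and 60.4 in knockouts (limma log2 fold change -0.89 ± 0.09, SE; adjusted p of 0.000314). Anxa2 read 646, 614 and 632 FPKM in controls, against 501, 507 and 550.3 in knockouts, and Anxa1, the partner of S100a11, averaged 753 and 594 FPKM. Both stood at the threshold, with log2 fold changes of -0.28 and -0.35 and limma adjusted p of 0.0521 and 0.059. Both passed as lower with TPM scaling (0.00272 and 0.0025) and median-ratio scaling (0.0231 and 0.0318), and without Spry1_KO replicate 3 (0.0423 and 0.0393). Cacybp, which binds S100a6, rose from 34.7 ± 3.12 to 57.6 ± 6.55 FPKM, and Myh9, the myosin bound by S100a4, from 26.1 ± 2.01 to 38.3 ± 0.167 FPKM (SD, n = 3 each). Anxa5 rose by 0.50. The calls for Anxa5 and Myh9 were lost with TPM scaling, where limma gave adjusted p of 0.136 and 0.11.

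Of 11 other EF-hand genes 4 rose and 2 fell, 54.5% called and so close to the 54.0% of all tested genes (median log2 fold change 0.14). Capns1, the small calpain subunit, rose by 1.58 and Calm4, a skin calmodulin-like gene, by 1.27. Calm5, a related skin gene, fell by 2.33, and Calm2, a calmodulin gene, by 1.12.

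Among 15 transcription factor genes known to act on S100 genes, 6 rose and 3 fell, where 29.6% of all tested genes rose and 24.4% fell (median log2 fold change -0.18). Stat3 read 18.1, 18.6 and 19.3 FPKM in controls, against 42.1, 35.4 and 39.6 in knockouts, and rose by 1.02 on the log2 scale. Hif1a, Cebpd and Cebpb rose by 1.19, 1.10 and 0.92. The 3 that fell were the AP-1 genes Fosb, Jun and Jund, named after their values were seen. Their limma adjusted p of 0.027, 0.0332 and 0.0175 went up to 0.0903, 0.107 and 0.054 among the alternatives, so none of these calls held throughout.

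Cytokines that induce S100A7 to S100A9 in keratinocytes, and their receptors, gave 6 risen and 3 fallen genes of 14 tested, 64.3% called beside 54.0% of all tested genes (median log2 fold change 0.27). Il1f6, which encodes interleukin 36 alpha, read 0.808, 0.929 and 0.116 FPKM in controls, against 63.1, 66.6 and 67.4 in knockouts (limma log2 fold change 5.41 ± 0.20, SE; adjusted p of 9.59e-06). Il1b rose by 1.66. The other 4 that rose did not do so under every alternative: of 15, Osmr was called in 4, Il1a and Il1f9 in 11 each and Tnfrsf1a in 12. Il6ra and Il1r1 fell by 1.95 and 1.04. The other gene that fell was Tnf, whose limma adjusted p of 0.0198 went up to 0.0685 among the alternatives. Of the 5 cytokines below the filter, Il17a, Il17f and Il22 had means of at most 0.153 FPKM in either group, with overlapping groups. Il6 and Osm, which encodes oncostatin M, were higher in every knockout than in every control: Il6 averaged 0.0211 and 0.508 FPKM and Osm 0.0547 and 1.23 FPKM in controls and knockouts. In limma-voom on genes with at least 10 reads they had log2 fold changes of 4.36 and 4.41 (adjusted p of 0.00378 and 0.00741). All of these but Il1f6, Il1b, Il6ra and Il1r1 were named after their values were seen.

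**Figure D5:**
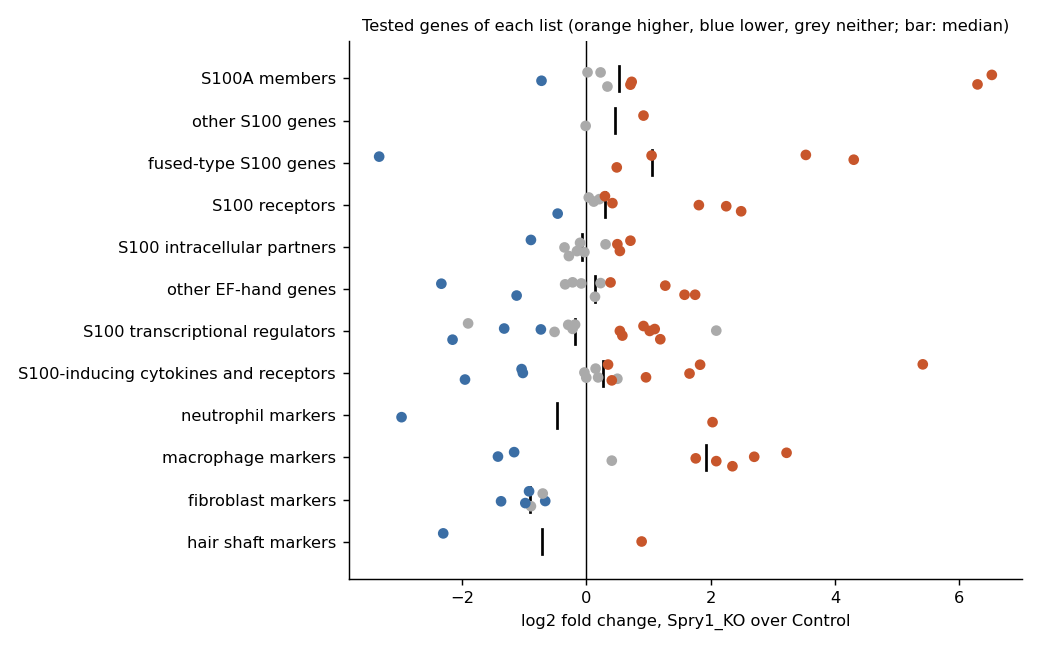
Log2 fold change of every tested gene in 12 gene lists; orange genes were higher, blue genes lower and grey genes neither (limma adjusted p under 0.05), and the black bar is the list's median. S100a8, S100a9 and the cytokine gene Il1f6 are the only points shown that lie above 5; most lists hold points on both sides of 0.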

How the data were processed

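RNA-seq of mouse back epidermis was measured in 3 control and 3 knockout samples, grouped by the sample titles. The deposited table holds FPKM values, made by the authors for 54532 genes. HISAT2 2.0.5, featureCounts 1.5.0-p3 and GRCm38 are named in the submitters' processing notes. Which annotation release, strand setting and FPKM formula were used is not given in the sources read here.

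Positions came from GENCODE M21, which matched 54495 gene IDs; 27 gene names that had become dates were replaced by ID. FPKM times exon length gave whole reads within 0.1 for 97.5% to 97.9% of values, where chance gives 20%. The totals scaled by were 98.8% to 102.9% of the recovered reads for controls and 88.1% to 95.6% for knockouts.

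Genes averaging 1 FPKM or more were tested on log2(FPKM + 1) with limma 3.58.1 and a variance trend under R 4.3.3, two-sided, Benjamini-Hochberg adjusted over all 12629 with a threshold of 0.05. Fold changes on this scale understate changes of low genes. It was tested on simulated data. The members, gene lists and tests were chosen with earlier results of these data known. All members are named, and of each gene list the called genes with the lowest p, up to 4. Ager, Tlr4, Anxa1, Anxa2 and the genes said to be chosen after their values were seen come on top, as do further marker genes. Alternatives were a pseudocount of 0.1, no filter, other scalings, limma-voom on recovered reads, array weights, a replicate block and leaving out samples; limma-voom on genes with at least 10 reads on average was added after S100a3 and S100a7a were seen below the filter. Replicates differed by more than sampling noise (chi-square per gene of 12.0 to 68.2).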

Additional observations from a re-analysis of the deposited data

How the results depend on the processing

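The 5 called members were called in the same direction under each of the 16 alternatives; of 128 values for the 8 tested members 117 kept their direction and side of the threshold. The sign of S100a10 turned under median-ratio scaling (-0.04), TPM scaling (-0.26), scaled to recovered reads (-0.12) and in limma-voom with either filter (-0.12 each), and it lay between -0.11 and 0.15 with samples left out. S100a14 turned under TPM scaling (-0.05). S100a13, near 0, lay between -0.13 and 0.05 with 1 sample left out, and was 0.03 with both Control replicate 3 and Spry1_KO replicate 2 left out. Genes called higher numbered 2055 under TPM scaling against 3736, and genes called lower 4764 in limma-voom on at least 10 reads, where more genes were tested, against 3079. With 1 sample left out, 3112 to 3977 were higher and 2424 to 3313 lower. The same-numbered samples did not deviate together across genes (r of -0.098, -0.111 and -0.125), but so few samples cannot show whether the numbers pair them. With the replicate block 3216 genes were higher and 2618 lower and the same 5 members were called. The SE of S100a8 was then 0.18 against 0.40, and that of S100a9 0.13 against 0.44. Of 1116 values for 70 other named genes, 1042 kept direction and side, 56 lost the call, 14 gained one and 4 turned. S100a3 and S100a7a, at 7 to 26 reads, are limited by depth: their log2 differences were 0.13 and 0.32 with a pseudocount of 1 FPKM and 0.57 and 0.79 with 0.1.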
